A study of Mesocricetus auratus with 9 samples.

Results

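The livers of Syrian hamsters (Mesocricetus auratus) sampled early in arousal were compared with livers sampled late in torpor. The comparison takes 6 of the 9 libraries of the series, chosen by the hibernation stage in the labels, with 3 arousal early and 3 torpor late animals. Torpor late animals had a mouth temperature of 9.0 ± 0.9 °C at death. Arousal early animals had been in torpor for over 3 days when handling roused them, and had reached 35.0 ± 2.1 °C. The remaining 3 libraries came from summer euthermic animals, outside hibernation, at 35.7 ± 0.5 °C. They serve here to say how far differences of torpor late from summer euthermic were reversed or kept. The labels do not say what these spreads are. Both hibernating groups were held in darkness until sampling. Strain, sex and age are not given in the sources used here, and the arousals were induced, not spontaneous.

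Hibernation is a series of torpor bouts, in which metabolic rate and body temperature drop, broken by short arousals in which the animal rewarms to near its usual temperature. The Syrian hamster is a facultative hibernator, which enters torpor after exposure to cold and short days. In a cold animal transcription and translation are slowed, and both resume on rewarming, while the liver handles the change between fat and carbohydrate as fuel. The comparison therefore asks which transcripts differ once the liver has warmed.

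The table lists 17090 Ensembl genes by identifier only, and 0 of them matched an entry of the reference gene table, so functions, gene groups and markers of liver cell types were not analysed here. Identifiers are given for 4 genes, and other genes are described by their values. The 6 libraries held 29675688 to 47565345 counts each. At least 1 count was found in any of the 6 for 16720 genes and in all 6 for 13763 genes. After a filter on low counts 12780 genes were tested. Values are given as CPM, counts scaled to a common TMM-adjusted library size, and a log2 fold change of 1 is a 2-fold difference. In bulk tissue, fewer cells of a type and less RNA per cell cannot be told apart.

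The 6 libraries did not separate cleanly by stage. Across the 12780 genes, log2 CPM of arousal early replicate 3 correlated at a mean of 0.984 with the torpor late libraries and at 0.976 with the other arousal early libraries. Arousal early replicates 1 and 2 had the opposite order, at 0.970 and 0.978 with torpor late and at 0.978 and 0.981 with the other arousal early libraries. With summer euthermic, too, arousal early replicate 3 had the highest mean correlation, at 0.974, against 0.968 and 0.966 for replicates 1 and 2. A division that crosses the stages was also present. Of the genes that reached 10 CPM in any library, 8 split the libraries into sets of at least 2, at least 10-fold apart. In 6 of these 8, replicates 1 and 2 of arousal early, replicate 1 of torpor late and replicate 2 of summer euthermic stood against the other 5 libraries. The division thus rests on 6 genes, while 7015 genes averaged 10 CPM or more in arousal early or torpor late. The labels name no batch, and what the division stands for was not tested. Values without these libraries, or within the sides of the division, are given with the results they bear on.

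No single gene passed the test between arousal early and torpor late. By the quasi-likelihood test of edgeR, adjusted by Benjamini-Hochberg, 0 of 12780 genes (0%) fell under 0.05, and the lowest adjusted p-value was 0.076. Before adjustment 956 genes (7.48%) had a p-value under 0.05, where 639 would be expected with no difference. Of these, 511 (4%) were higher and 445 (3.48%) were lower in arousal early. With upper-quartile scaling the split turned to 385 higher and 576 lower, so no preponderance of direction can be read from it. Of the same 12780 genes, DESeq2 called 60 higher and 21 lower. All 81 had an unadjusted edgeR p-value under 0.05, and all had arousal early libraries that did not overlap with torpor late. Over all genes tested 11.7% did not overlap, and choosing genes by low p-values largely brings this about. Both tools used the same counts, so the genes they share are not independent support. The limma-voom fit called 0 genes, with 930 at an unadjusted p-value under 0.05.

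The counts rested on which arousal early animals were included. Without arousal early replicate 3, the library closest to torpor late, 889 genes stood higher and 744 lower at an unadjusted p-value below 0.05, and 2 genes passed the adjusted threshold, both higher. Without arousal early replicate 1 the numbers were 312 higher and 242 lower, and 1 higher gene passed. These 554 genes, of 12947 tested, are fewer than the 639 expected of 12780 genes with no difference. The excess over that number thus depended on this library, while the other fits without a library had 722 genes or more. Leaving out any other library kept the higher and lower counts at that unadjusted threshold within 1.5 times the values of all 9 libraries.

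The data were precise enough to limit the size of most differences. The median standard error of the log2 fold change was 0.18, and the median half-width of the 95% interval corresponded to a factor of 1.33. For 9975 of the 12780 genes (78.1%) the 95% interval lay wholly inside a 2-fold change in either direction. These intervals are per gene and not adjusted for the number of genes. A 2-fold difference was fitted for 169 genes higher and 209 lower in arousal early, at median levels of 1.72 and 0.522 CPM. Most such fitted changes were thus found where counts were low.

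**Figure D1:**
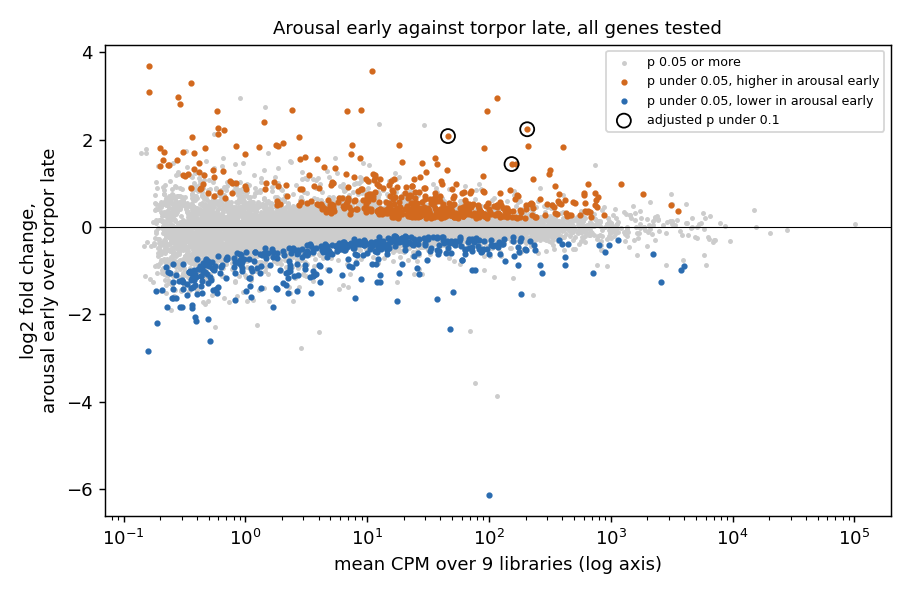
Log2 fold change of arousal early over torpor late (y axis) against mean CPM over the 9 libraries (x axis, log scale), 1 point per gene tested. Orange points are the 511 genes higher and blue points the 445 genes lower at an unadjusted p-value under 0.05; rings mark the 3 genes with an adjusted p-value under 0.1, all higher in arousal early.

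Genes at different levels differed in direction. The genes were divided by mean CPM into 5 classes of 2556. In the lowest class, up to 1.92 CPM, 56 genes were higher and 137 lower after arousal at an unadjusted p-value under 0.05. In the highest class, from 46.6 CPM, 177 were higher and 83 lower. With upper-quartile scaling the counts were 45 higher and 152 lower in the lowest class and 131 higher and 112 lower in the highest, so the excess of higher genes at high levels was much smaller there. Without arousal early replicate 3 the highest class had 155 higher and 137 lower genes, and without arousal early replicate 1 it had 129 and 39. The share of genes at that threshold was 7.55% in the lowest class, 5.95%, 6.34% and 7.39% in the next, and 10.2% in the highest. The plot of fold change against level shows the same, with blue points concentrated at low CPM and orange points at middle and high CPM. No gene with counts in all 3 libraries of one stage and none in the other was abundant. Genes absent from one stage and counted in only part of the other stage's libraries were not examined. There were 16 genes with counts in all 3 arousal early libraries and none in torpor late, holding at most 15 counts each in all, and 28 genes with the reverse, holding at most 23.

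The arousal early and torpor late libraries were fully separated for 1497 genes (11.7%). With no stage difference, 10% of genes would be expected to separate in this way. All arousal early libraries lay above all torpor late libraries for 772 genes (6.04%) and below them for 725 (5.67%). Of the 511 higher genes 397 were among these, and of the 445 lower genes 346. Restricting these further to genes averaging 10 CPM or more in the higher stage left 309 higher genes, with a median log2 fold change of 0.40 and 28 of at least 2-fold, and 158 lower genes, with a median of -0.39 and 13 of at least 2-fold. Most of the fitted differences among these genes were thus smaller than 2-fold.

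The 2 genes with the largest fitted change in each direction among these were examined by library. ENSMAUG00000017619 had 46.1, 36.8 and 22.1 CPM in torpor late replicates 1 to 3 and 694, 55.3 and 60.3 CPM in arousal early replicates 1 to 3. The groups do not overlap, but the difference is mostly that of 1 animal, whose level was 12.01 times the mean of the other arousal early libraries. The log2 fold change was 2.95 (SE 0.91, edgeR adjusted p = 0.607), and without arousal early replicate 1 it was 0.73. Summer euthermic libraries had 46.8, 60.6 and 27.9 CPM, all far below arousal early replicate 1.

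ENSMAUG00000000465 had 28.5, 16.3 and 15.2 CPM in torpor late and 69.8, 256 and 52.4 CPM in arousal early. Each arousal early library was above each torpor late library, with replicate 2 far above the other two. The log2 fold change was 2.66 (SE 0.57, edgeR adjusted p = 0.372), and it was 1.62 without arousal early replicate 2. In summer euthermic liver the gene had 159, 99.7 and 171 CPM. Torpor late was therefore the low stage, by a log2 difference of -2.84 from summer euthermic (SE 0.58, edgeR adjusted p = 0.0506). Arousal early differed from summer euthermic by -0.19 (SE 0.54, edgeR adjusted p = 0.871).

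ENSMAUG00000013255 had 29.3, 36.5 and 30.8 CPM in torpor late and 5.35, 10.2 and 14.5 CPM in arousal early. The torpor late libraries lay close together and all above arousal early, and the summer euthermic libraries, at 15.0, 2.66 and 14.0 CPM, spanned the arousal early range. The log2 fold change of arousal early against torpor late was -1.69 (SE 0.55, edgeR adjusted p = 0.607).

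ENSMAUG00000000398 had 41.2, 39.7 and 94.5 CPM in torpor late and 16.9, 14.8 and 24.5 CPM in arousal early. Summer euthermic libraries had 41.4, 32.6 and 28.5 CPM, so that arousal early was the lowest of the stages. The log2 fold change against torpor late was -1.64 (SE 0.34, edgeR adjusted p = 0.346). It was -1.11 without torpor late replicate 3, the library with the highest level. DESeq2 called this gene (adjusted p = 0.000744) and ENSMAUG00000000465 (adjusted p = 0.0227), but not ENSMAUG00000013255, and it gave no adjusted p-value for ENSMAUG00000017619.

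**Figure D2:**
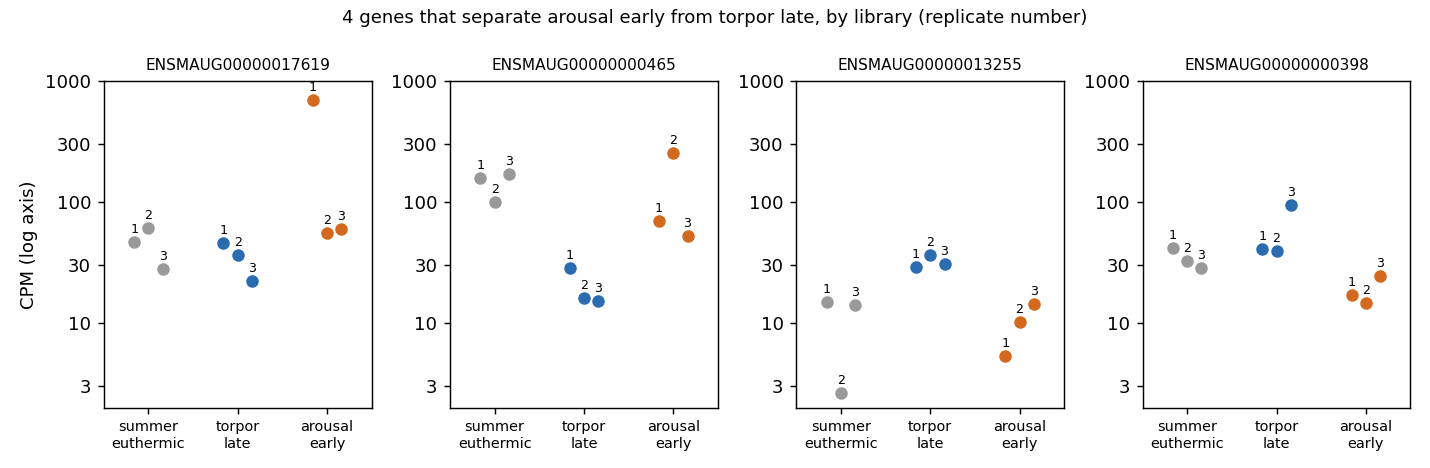
CPM (y axis, log scale) of 4 genes in each of the 9 libraries, the 2 in each direction with the largest fitted change among genes with an unadjusted p-value under 0.05, no overlap and 10 CPM or more in the higher stage; the number beside a point is the replicate. The groups do not overlap in any panel, but arousal early replicate 1 of ENSMAUG00000017619, at 694 CPM, and replicate 2 of ENSMAUG00000000465, at 256 CPM, stand far above the other arousal early libraries.

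Ranked by p-value instead of fold change, the first 20 genes comprised 17 with higher and 3 with lower levels after arousal. Their adjusted p-values went up to 0.275. In all 20 the stages did not overlap, beside 11.7% of all genes tested. A low p-value with 3 libraries a stage largely brings this about, so it adds no support. Their log2 fold changes had absolute values from 0.59 to 3.30. DESeq2, run on the same counts, called all 20 in the same direction.

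The gene with the lowest p-value had 89.0, 77.3 and 96.7 CPM in torpor late, 238, 279 and 196 CPM in arousal early and 142, 146 and 115 CPM in summer euthermic. The 3 stages did not overlap, and summer euthermic lay in the middle. Its log2 fold change on rewarming was 1.44 (SE 0.16, edgeR adjusted p = 0.076). Over 18 alternatives it ranged from 1.31 to 1.56, and the adjusted p-value passed 0.05 in 3 and reached 0.348.

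The second gene had 23.6, 17.6 and 17.9 CPM in torpor late, 96.0, 97.6 and 56.4 CPM in arousal early and 27.4, 47.2 and 31.3 CPM in summer euthermic. All arousal early libraries were above all others. The log2 fold change was 2.08 (SE 0.26, edgeR adjusted p = 0.0927). With the division of the libraries as a covariate it was 1.84 (edgeR adjusted p = 0.00107), the only gene called in that fit. The division was read from these same counts, and the fit takes it as known, so this p-value is a description only. Over the 18 alternatives the gene's adjusted p-value passed in 4, with that fit among them, and reached 0.427.

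The third gene had 102, 78.0 and 87.4 CPM in torpor late, 250.2, 556 and 453 CPM in arousal early and 135, 109.9 and 84.0 CPM in summer euthermic. Torpor late and summer euthermic overlapped, and arousal early lay above both. The log2 fold change was 2.24 (SE 0.29, edgeR adjusted p = 0.0927), with an adjusted p-value that passed in 3 of 18 alternatives and reached 0.427. These 3 genes were also the 3 called without a filter on counts.

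Other patterns among the 20 are shown by 3 genes chosen after their values were seen. The gene ranked 6 was at 622, 625 and 640.1 CPM in torpor late and at 1059, 971 and 1027 CPM in arousal early, a narrow spread at a high level, with summer euthermic at 766, 671 and 639 CPM. Its log2 fold change was 0.70 (SE 0.11, edgeR adjusted p = 0.244). The gene ranked 12 was at 205, 187 and 171 CPM in torpor late, against 283, 313 and 279 CPM in arousal early and 315, 313 and 288 CPM in summer euthermic. It was lower in torpor late than in summer euthermic by an edgeR adjusted p-value of 0.0295, and its arousal early range overlapped that of summer euthermic. The gene ranked 19 was lower in arousal early, at 252, 426 and 404 CPM, than in torpor late, at 672, 726 and 829.8 CPM, and summer euthermic was higher still at 1092, 948 and 1049 CPM. None of these 3 genes passed the adjusted threshold between arousal early and torpor late. Over the first 20 genes, the summer mean lay between the means of torpor late and arousal early for 13, below both for 4 and above both for 3.

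The summer euthermic libraries gave a measure of direction that was not used to choose the 956 genes, although they entered the shared estimate of spread. The summer level of each gene was placed on a scale from the torpor late mean, set at 0%, to the arousal early mean, set at 100%. For the 511 genes higher in arousal early the median summer position was 26.3%, with quartiles of -25.3% and 78.8%. The summer level was nearer arousal early for 184 of them (36.0%) and nearer torpor late for 327. It lay below torpor late for 184 genes, between the stages for 231 and above arousal early for 96. For the 445 lower genes the median position was 39.9%, and 199 (44.7%) were nearer arousal early.

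Over all genes tested the share nearer arousal early was 47.7% of those fitted higher and 48.9% of those fitted lower. By single summer animals, the share for the 511 higher genes was 43.4%, 40.9% and 33.1%. These shares place each library by its log2 CPM between the stage means, while the pooled shares use the fitted fold changes. They are therefore not the same measure. The 100 higher genes with the lowest p-values had 25 nearer arousal early. For most genes higher after rewarming, the summer level was thus nearer to torpor late than to arousal early. No test was made of this, since the 3 stages share the fit. The share for higher genes ranged from 28.2% to 44.5% when each library in turn was left out. That for lower genes ranged from 37.0% to 58.9%, passing the midpoint without torpor late replicate 1 (50.5%) and without torpor late replicate 3 (58.9%). Without a torpor late or arousal early library, the stages have unequal numbers of libraries. With no stage difference, the summer level is then expected nearer the stage with more libraries and not at the midpoint. Part of these ranges can therefore come from the unequal numbers.

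**Figure D3:**
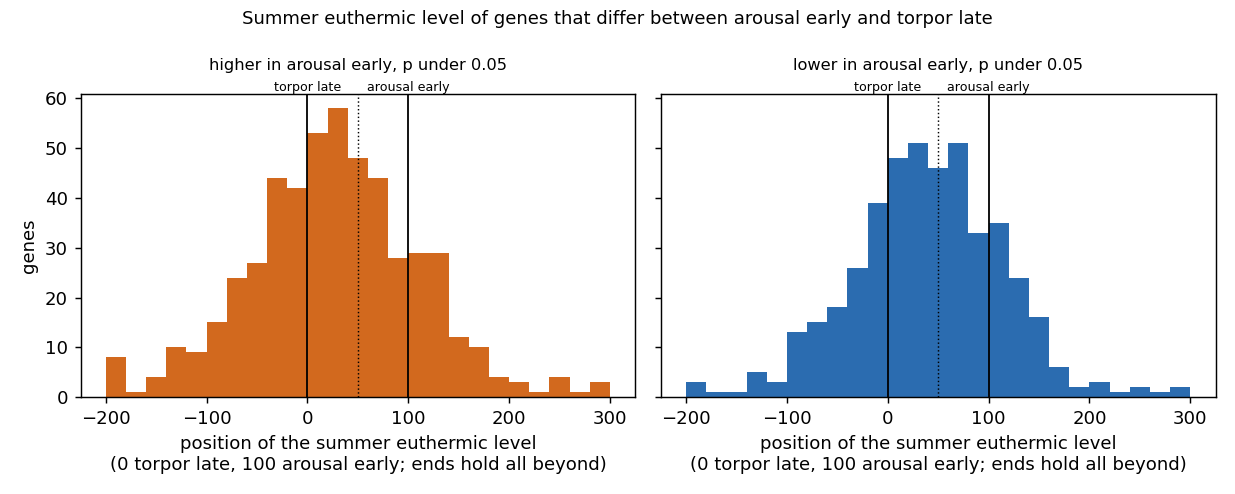
Number of genes (y axis) by the position of the summer euthermic level on a scale where torpor late is 0 and arousal early is 100 (x axis, percent), for the 511 genes higher (left) and the 445 lower (right) in arousal early at an unadjusted p-value under 0.05; the dotted line is the midpoint and the end bars hold all values beyond them. The higher genes centre on 26.3% and the lower genes on 39.9%.

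The reverse question is what became of the genes that differed between torpor late and summer euthermic. Arousal early animals shared the hibernation period and the darkness with torpor late animals. Differences of torpor itself and of season or housing therefore cannot be told apart in these lists. Between torpor late and summer euthermic, edgeR's quasi-likelihood test called 175 genes (1.37%), of which 86 (0.673%) were higher and 89 (0.696%) lower in torpor late. Arousal early levels are not part of that contrast, although these libraries entered the filter and the shared spread and so moved the number of calls, as given below. The 86 higher genes stood at a median of 0.90, 0.99 and 0.86 on the log2 scale above the summer mean in the torpor late libraries and at 0.77, 0.89 and 0.86 in the arousal early libraries. The 89 lower genes stood at -0.83, -0.87 and -0.85 in torpor late and at -0.74, -0.84 and -0.73 in arousal early. In both lists the arousal early libraries remained close to torpor late and far from summer. The summer mean also helped to choose these genes, which by itself sets arousal early somewhat away from it.

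Gene by gene, the step from summer euthermic to arousal early was expressed as a percentage of the step to torpor late. The median was 96.0% for the 86 higher genes, with quartiles of 78.9% and 113%, and 81.1% for the 89 lower genes, with quartiles of 66.4% and 97.4%. By single arousal early animals the medians were 87.0%, 99.998% and 95.4% for the higher genes and 75.0%, 87.5% and 84.4% for the lower genes. Less than 50% of the step was left in 5 of the 86 and in 9 of the 89, and 0 genes of either list had crossed the summer level. At the other end, 37 genes of the higher list and 22 genes of the lower list were as far from summer in arousal early as in torpor late, or farther.

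The comparisons share libraries, so their values are set side by side and no test was made across them. For the 86 higher genes the median log2 fold change was 0.93 in torpor late against summer euthermic, -0.03 in arousal early against torpor late and 0.88 in arousal early against summer euthermic. For the 89 lower genes the medians were -0.88, 0.17 and -0.77. Over all genes tested they were 0.01, -0.01 and -0.004. Between arousal early and torpor late, 13 of the 86 were lower and 8 higher after arousal at an unadjusted p-value under 0.05, while 21 of the 89 were higher and 4 lower. These are 24.4% and 28.1% of the lists, beside 7.48% of all genes tested, and the libraries shared with the choice of the lists bear on these shares. Choosing genes for an extreme torpor late mean makes a return towards the other stages likelier by itself, because the torpor late libraries are on both sides of these steps. The choice of an extreme summer mean acts the opposite way on the step from summer to arousal.

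**Figure D4:**
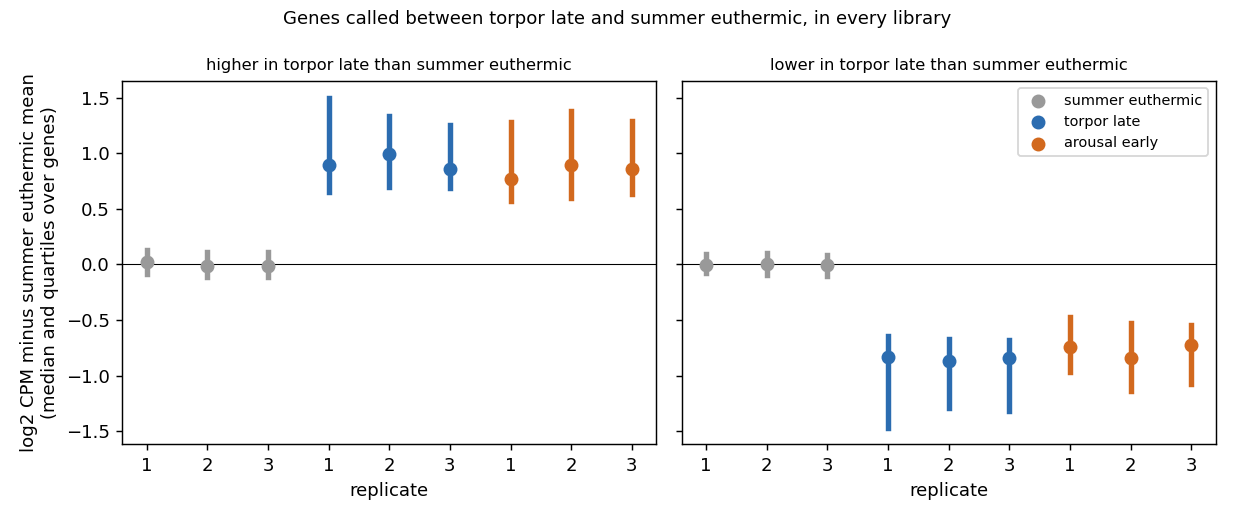
Log2 CPM minus the summer euthermic mean (y axis) in each library (x axis, replicates of each stage) for the 86 genes higher (left) and the 89 lower (right) in torpor late than in summer euthermic; dots are medians over genes and bars run between quartiles. Arousal early medians lie between 0.77 and 0.89 on the left and between -0.84 and -0.73 on the right, beside the torpor late ones.

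The list itself depended on single libraries. The 175 calls became 17, 26 and 5 without summer euthermic replicates 1, 2 and 3, and 1, 0 and 31 without torpor late replicates 1, 2 and 3. They became 313 without arousal early replicate 1 and 74 without arousal early replicate 2, which enter through the filter and the shared spread. Without torpor late replicate 2, where edgeR called 0 genes, 2275 had an unadjusted p-value under 0.05. DESeq2 on all libraries called 534 higher and 533 lower genes, and the median step left in arousal early was then 87.4% and 78.2%.

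Differences between arousal early and torpor late did not carry over evenly from some animals to others. Each of the 6 libraries was left out in turn, genes with an unadjusted p-value under 0.05 were chosen from the remaining libraries, and the left-out library was placed by its log2 CPM between the mean of its own stage (0%) and that of the other (100%). Its median distance from its own stage was 20.4% over 546 genes for arousal early replicate 1, 41.7% over 779 genes for arousal early replicate 2 and 81.9% over 1604 genes for arousal early replicate 3. For torpor late replicates 1 to 3 it was 65.0% over 1151, 58.8% over 1002 and 37.6% over 697 genes. Because the own stage then has 2 libraries against 3, genes of equal spread in all libraries and no stage difference would give 60%. Arousal early replicate 3 was farther from its own stage than that, torpor late replicates 1 and 2 were near that value, and the other 3 libraries were closer to their own stage. No test was made of these distances.

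**Figure D5:**
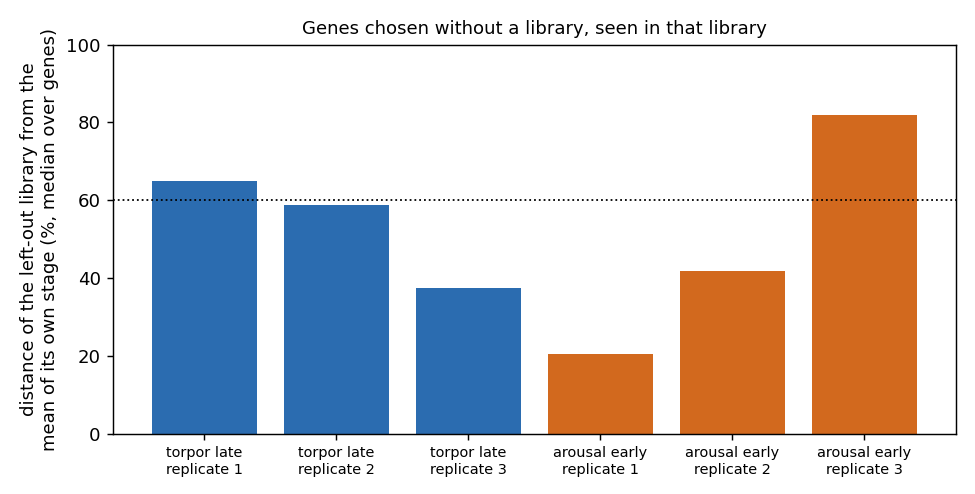
Median distance of a left-out library from the mean of its own stage (y axis, from 0; 100% is the mean of the other stage) over the genes chosen without it, for the 6 libraries (x axis; blue torpor late, orange arousal early); the dotted line marks 60%, the value with no stage difference and equal spread. Arousal early replicate 3 is highest at 81.9% and arousal early replicate 1 lowest at 20.4%.

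The division of the libraries runs through this comparison, with arousal early replicates 1 and 2 and torpor late replicate 1 on one side. The other side holds arousal early replicate 3 and torpor late replicates 2 and 3. Each side has a stage with 1 library, so fold changes within the sides are given as descriptions, from a model with a mean for each stage and side. The log2 fold changes within the sides, which share no library, had a Pearson's r of -0.13 and a Spearman's rho of -0.07 across the 12780 genes. These values are across genes, which are not independent, and describe the 6 libraries only. For ENSMAUG00000017619 the log2 fold changes within the sides were 3.02 and 1.03, for ENSMAUG00000000465 2.51 and 1.73, for ENSMAUG00000013255 -1.92 and -1.21, and for ENSMAUG00000000398 -1.37 and -1.45. For the gene with the lowest p-value they were 1.54 and 1.17, for the second 2.04 and 1.66 and for the third 1.99 and 2.45. These genes differed in the same direction on both sides, which the lack of overlap between their stages requires.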

How the data were processed

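Total RNA from liver, 437 ng per animal, was made into stranded poly(A) libraries and read from a single end to 75 bp, per the labels' protocols. The authors deposited raw read counts per Ensembl gene, with 1 column per animal. STAR 2.7.0f is named in the submitters' processing notes. The counting program, strand setting, genome build and annotation are not given in the sources used here, so overlapping genes and near-identical copies may share reads. No table column was left unused (0).

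The main tool was edgeR 4.0.16, run in R 4.3.3. Genes were filtered with filterByExpr, which left out at most 0.0344% of any library's counts, scaled by TMM and fitted in 1 quasi-likelihood model over all 9 libraries. P-values were adjusted by Benjamini-Hochberg over 12780 genes. Standard errors are the absolute log2 fold change over the square root of F, and intervals use the model's degrees of freedom. Log2 CPM used a prior count of 2. The steps were also run on simulated counts, drawn with the same biological variation for every gene and no division of the libraries. That run checks the steps and not the calls made on these data. Replicates are numbered in accession order and pair no animals. An exact test of 3 animals against 3 cannot go below 0.1, so single genes rest on the fit.

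As alternatives, the counts were scaled by upper quartile or RLE, tested with limma-voom (limma 3.58.1) or DESeq2 1.42.0, and filtered otherwise. Others dropped the 50 genes with the most counts, fitted just the pair of stages, used a threshold of 0.1, took the division as a covariate or omitted each library. Genes were named by a level of 10 CPM or more in the higher stage, no overlap, an unadjusted p-value under 0.05 and the largest fold change, 2 in each direction; the 3 with the lowest p-values and 3 more were added after their values were seen. The comparison, lists and alternatives were chosen with earlier results of these data known, and the measures of position and of the step left in arousal were chosen after seeing the data.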

Additional observations from a re-analysis of the deposited data

How the results depend on the processing

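Genes called between arousal early and torpor late numbered 0 in each direction with upper-quartile or RLE scaling, with limma-voom, with a minimum of 10 counts everywhere, without the 50 genes of highest count and in fits of the pair of stages alone. There were 60 higher and 21 lower with DESeq2, 3 higher without a filter, 3 higher at a threshold of 0.1 and 1 higher with the covariate for the division. Across the 9 fits that each left out a replicate, higher calls ranged from 0 to 2 and lower calls were 0 throughout, while genes at an unadjusted p-value under 0.05 ranged from 312 to 889 (higher) and from 242 to 744 (lower).

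Between torpor late and summer euthermic, DESeq2 called 534 higher and 533 lower genes, and edgeR called 414 and 416 at a threshold of 0.1, and 198 and 212 with the covariate. Leaving out a replicate gave 0 to 127 higher and 0 to 186 lower genes. Over these lists the median log2 fold change from torpor late to arousal early for higher genes was -0.087 with DESeq2 and -0.096 at 0.1, and it ranged from -0.147 to 0.031 without a replicate, the ends from lists of 2 genes (without summer euthermic replicate 3) and 8 genes (without summer euthermic replicate 1). For lower genes it was 0.33 with only the stages compared and ranged from 0.12 to 0.64. The median step left in arousal early for higher genes was 87.4% with DESeq2, 89.3% with at least 10 counts everywhere and 86.1% at 0.1, and ranged from 86.6% to 102% without a replicate. For lower genes it was 74.0% without a filter and 65.4% with only the stages compared, and ranged from 60.3% to 85.5%. The ends at 0.64 and 60.3% come from the fit without torpor late replicate 1, where the list holds 1 gene, and are that gene's values. The share of genes whose summer level was nearer arousal early ranged from 28.2% to 44.5% (higher) and from 37.0% to 58.9% (lower) without a replicate. The cause of these shifts was not tested. The lists were empty, and gave no median, for higher genes without torpor late replicates 1 or 2 and for lower genes without torpor late replicate 2.

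No paired analysis was made, because each library came from a different animal and the labels pair none. The 4 named genes kept their direction in all 71 pairs of a gene and an alternative. They were chosen for no overlap between the stages, so their choice largely fixed this outcome. The biological coefficient of variation common to all genes was 22.3%, at totals of 29675688 to 47565345 counts per library.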
